A study of Mus musculus with 6 samples.

Results

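Genes of the endoplasmic reticulum (ER) folding machinery and of the unfolded protein response were followed in the transcriptome of sorted brain astrocytes from normoglycemic and hyperglycemic mice. The set held 37 genes of 45777 listed and 22337 tested. It was chosen by name from genes of this pathway when earlier results of these data were known. It was further selected on measured values, since a member had to have a read count above 0 in all 6 samples. All 37 genes met that condition; the lowest member count was 25 reads, for Chac1 in STZ replicate 3, and no gene of the set fell outside. The counts given for the set are therefore descriptions and not independent evidence of its direction.

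Astrocytes came from male Aldh1l1-CreERT2; tdTomato fl/fl mice on a C57BL/6 background, labelled WT, in which tamoxifen (75 mg/kg on 5 days, in both groups) switches on the red protein tdTomato wherever the Aldh1l1 promoter is active. At 8 weeks of age, mice received 1 injection of streptozotocin (STZ), a toxin of pancreatic beta cells, or citrate buffer (vehicle). STZ mice were kept for study only if their fasting blood glucose had risen. TdTomato-positive cells of 3 brains were pooled into each sample, and each group had 3 samples, so p-values measure the spread between pools. The labels tell the groups apart as normoglycemic and hyperglycemic, and the comparison asks how the astrocyte transcriptome differs with high blood glucose.

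Proteins that enter the ER are folded, glycosylated and disulfide-bonded by resident chaperones. When folding falls behind demand, 3 sensors in the ER membrane respond: ATF6 is cut to release a transcription factor, IRE1 (Ern1) splices the mRNA of Xbp1, and PERK (Eif2ak3) phosphorylates eIF2α, which lowers translation in general but raises that of ATF4. ATF6 and XBP1 mainly drive chaperones and ER-associated degradation (ERAD, the export of misfolded proteins to the proteasome), whereas ATF4 drives Ddit3 (CHOP), Trib3, Chac1 and amino acid genes. Astrocytes secrete many glycoproteins and use this machinery all the time.

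The promoter sequences of the members with a known response element are shown first, since their letters do not depend on the expression values. ATF6 and XBP1 act through the ER stress response element (ERSE), CCAAT, 9 bases of any kind and CCACG, searched here as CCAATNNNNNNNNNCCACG on both strands of the 300 bases from 250 before to 50 after the transcription start (RefSeq, GRCm38.p6). A window was at hand for 31 of the 37 genes. The exact ERSE was in 9 of these 31 genes, against 0.137% of 27025 genes and 0.119% of 32851 promoters of the same length. The set was chosen by name and holds known targets of ATF6 and XBP1, so this excess is a description and not a finding. It was in 7 of 13 chaperone genes with a window (Hspa5, Hsp90b1, Calr, Canx, Creld2, Pdia6 and Dnajc3), in 2 of 7 ERAD genes (Syvn1 and Derl3) and in none of the windows of the other branches. Each stretch below is written 5′ to 3′ in the direction of its gene, with the element in capitals and up to 15 flanking bases on each side; where the element lies on the other strand it reads as its reverse complement, starting with CGTGG. Hsp90b1 has a pair of elements.
Hspa5 (chr2:34772010-34772058, plus strand): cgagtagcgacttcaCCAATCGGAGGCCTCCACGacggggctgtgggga
Hsp90b1 (chr10:86705623-86705671, minus strand): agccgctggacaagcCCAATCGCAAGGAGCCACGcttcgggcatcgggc
Hsp90b1 (chr10:86705518-86705566, minus strand): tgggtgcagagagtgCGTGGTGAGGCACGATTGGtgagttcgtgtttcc
Calr (chr8:84847060-84847108, minus strand): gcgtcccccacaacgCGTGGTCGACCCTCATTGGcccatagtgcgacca
Canx (chr11:50325785-50325833, minus strand): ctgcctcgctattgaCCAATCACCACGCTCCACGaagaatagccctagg
Creld2 (chr15:88819505-88819553, plus strand): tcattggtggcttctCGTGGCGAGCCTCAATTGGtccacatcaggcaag
Pdia6 (chr12:17266476-17266524, plus strand): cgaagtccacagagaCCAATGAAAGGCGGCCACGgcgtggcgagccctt
Dnajc3 (chr14:118937812-118937860, plus strand): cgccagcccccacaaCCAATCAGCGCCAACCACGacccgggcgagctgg
Syvn1 (chr19:6046517-6046565, plus strand): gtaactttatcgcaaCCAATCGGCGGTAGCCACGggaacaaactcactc
Derl3 (chr10:75893227-75893275, plus strand): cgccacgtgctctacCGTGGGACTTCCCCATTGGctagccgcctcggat

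The second form of the element, ERSE-II (ATTGG, 1 base of any kind and CCACG, in 0.0365% of all promoters), was in the windows of Dnajb11 and Herpud1. The C/EBP-ATF response element bound by ATF4 and CHOP (CARE, TGATGNAA, in 3.97% of all promoters) was in those of Chac1, Trib3 and Herpud1. The XBP1 site UPRE (TGACGTGG, in 0.676% of promoters) and the heat shock element HSE (GAA, 2 bases of any kind, TTC, 2 bases of any kind and GAA, in 0.603%) were in none of the 31 windows, which says only that these exact letters were not found there. Herpud1 carries the ERSE-II, and Chac1 the CARE, in these stretches.
Herpud1 (chr8:94386362-94386402, plus strand): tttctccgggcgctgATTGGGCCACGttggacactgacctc
Chac1 (chr2:119351034-119351071, plus strand): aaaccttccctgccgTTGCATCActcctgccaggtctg

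Read counts were compared with edgeR's quasi-likelihood test over all 22337 genes with a count above 0 in every sample, and levels are given as CPM, read counts scaled to library size after TMM normalization. A gene was called when its Benjamini-Hochberg adjusted p was under 0.05 and its fold change over 1.5. Hspa5 overlaps Rabepk in the annotation, Pdia3 overlaps Catsper2 and Pdia6 overlaps Atp6v1c2, so their counts may share reads. Levels of different genes are compared only as TPM, which takes gene length into account. Totals of 52529048 to 58749115 reads per sample make 3 reads equal to 0.0511 to 0.0571 CPM, so counting error is small for all of these genes except the few near 1 CPM. The samples also hold RNA of other cells: the choroid plexus and ependymal list, led by Ttr, summed to between 10568 and 29808 TPM, from below to above the astrocyte list at 14174 to 17190 TPM, and the endothelial list summed to between 78.0 and 511 TPM. In such bulk samples, fewer cells of a type and less RNA per cell cannot be told apart.

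ER chaperone transcripts had lower levels in the STZ samples, with Serpinh1 the only gene of the 37 past the threshold. All 15 genes of the chaperone arm had a negative log2 fold change, and in 14 of them every STZ sample lay below every vehicle sample. The PERK-ATF4 genes showed no common direction, and 7 of 8 ERAD genes had negative values, mostly nearer to 0. Over the 37 genes, 29 log2 fold changes were negative and 8 positive, with a median of -0.22 against 0.01 over all genes tested.

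By edgeR's call, 1 gene of the set was lower (Serpinh1), where the background of called lower genes was 0.0134% of all genes tested. At an unadjusted p under 0.05, 18 genes were lower, against a background of 5.65%, and 0 were higher, against 5.63%. The groups did not overlap in 22 genes that were lower, against 9.85% of all genes, and in 0 that were higher, against 8.64%. Among genes with a mean of at least 20 CPM, these backgrounds were 10.8% for a lower unadjusted p under 0.05 and 15.5% for lower groups without overlap. Of the 37 genes, 29 reach that level, and 17 and 20 of them met these conditions. DESeq2 gave 11 lower genes at an adjusted p under 0.05 with any fold, against 0.895% of all genes, and 0 higher, against 0.819%. With a fold over 1.5 as well, it gave 3 (Serpinh1, Hspa5 and Sdf2l1), against 0.394%.

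**Figure D1:**
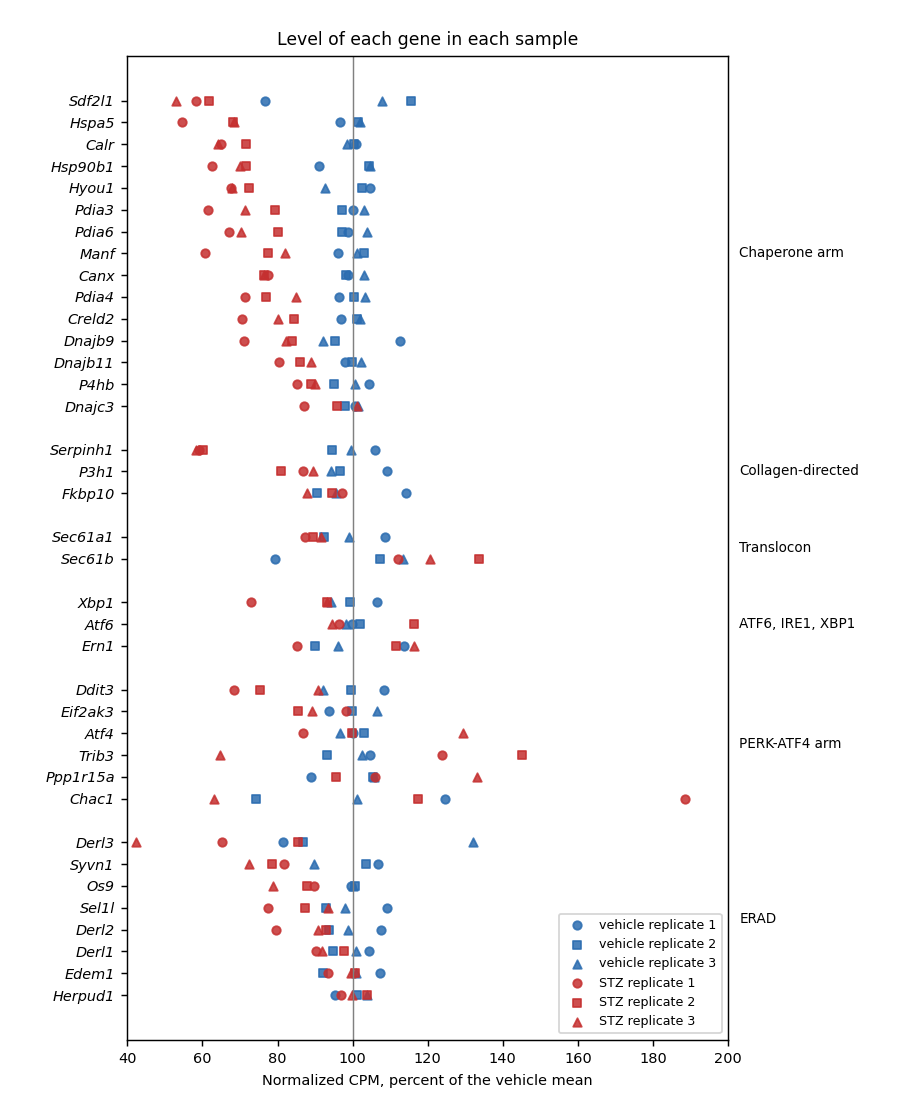
Level of each of the 37 genes in each sample, as normalized CPM in percent of the vehicle mean of that gene; blue symbols are vehicle and red symbols STZ samples, with the symbol shape giving the replicate and no pairing implied. Red and blue symbols are apart in 14 of 15 chaperone genes and in Serpinh1, and mixed in most PERK-ATF4 genes.

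The most abundant gene of the set was Hspa5, at a mean of 849 TPM. It encodes BiP, the HSP70 of the ER lumen that binds unfolded chains and holds the sensors inactive. Its level was 1190.1, 1251 and 1258 CPM in the vehicle samples and 672, 838 and 845 CPM in the STZ samples. Every STZ sample was below every vehicle sample, and STZ replicate 1 was the lowest. The log2 fold change was -0.65 (SE 0.109, edgeR adjusted p = 0.169, DESeq2 adjusted p = 3.3e-05), so that edgeR's threshold was not passed. Sdf2l1, a partner of BiP's J-domain cochaperones, had the most negative value of the arm. It was at 36.0, 54.2 and 50.5 CPM in the vehicle samples and 27.4, 28.9 and 24.8 CPM in the STZ samples. The vehicle samples were spread widely, with replicate 1 lowest, but the groups did not overlap, and the log2 fold change was -0.80 (SE 0.154, edgeR adjusted p = 0.201, DESeq2 adjusted p = 0.000457).

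Hsp90b1 encodes GRP94, the HSP90 of the ER. It was at 641, 736 and 738 CPM in the vehicle samples and 441, 504 and 493 CPM in the STZ samples, without overlap, a log2 fold change of -0.56 (SE 0.0939, edgeR adjusted p = 0.169, DESeq2 adjusted p = 0.000134). Hyou1, the large HSP70-like protein that acts as a nucleotide exchange factor for BiP, was much scarcer at a mean of 8.36 TPM. Its level was 21.9, 21.4 and 19.4 CPM in the vehicle samples and 14.1, 15.1 and 14.1 CPM in the STZ samples, and its log2 fold change was -0.53 (SE 0.0978, edgeR adjusted p = 0.189). The STZ values lay close together and below all vehicle values.

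The lectin chaperones calreticulin and calnexin hold newly made glycoproteins until their sugar is trimmed. Calr was at 702, 698 and 685 CPM in the vehicle samples and 452, 497 and 446 CPM in the STZ samples. Both groups were tight and well apart, with a log2 fold change of -0.58 (SE 0.0769, edgeR adjusted p = 0.117, DESeq2 adjusted p = 7.22e-07). Canx was at 346, 344 and 360.3 CPM in the vehicle samples and 271, 267 and 268 CPM in the STZ samples. The STZ samples were nearly equal and below all vehicle samples, and the log2 fold change was -0.38 (SE 0.0644, edgeR adjusted p = 0.169, DESeq2 adjusted p = 0.00109).

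The protein disulfide isomerases form and reshuffle disulfide bonds, and 4 of them were in the arm. Pdia3 (ERp57), which works with the lectin chaperones, was at 816, 793 and 840.2 CPM in the vehicle samples and 501, 648 and 583 CPM in the STZ samples, a log2 fold change of -0.50 (SE 0.106, edgeR adjusted p = 0.227). Pdia6 was at 445, 438 and 468 CPM in the vehicle samples and 303, 361 and 317 CPM in the STZ samples, a log2 fold change of -0.46 (SE 0.0873, edgeR adjusted p = 0.189). In both genes STZ replicate 1 was the lowest and the groups did not overlap. Pdia4 was at 298, 311 and 319.7 CPM against 221, 238 and 263 CPM, with a log2 fold change of -0.36 (SE 0.0840, edgeR adjusted p = 0.258). P4hb, the founding member and also a subunit of collagen prolyl 4-hydroxylase, was at 496, 452 and 477 CPM against 404, 422 and 427 CPM, with a log2 fold change of -0.18 (SE 0.0729, edgeR adjusted p = 0.413). Its groups did not overlap either, but its interval, -0.35 to -0.01, came close to 0.

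The J-domain proteins bring unfolded chains to BiP, and their log2 fold changes were smaller in size than that of BiP, a difference that was not tested. Dnajb9 (ERdj4) was at 58.0, 49.1 and 47.5 CPM in the vehicle samples and 36.6, 43.3 and 42.4 CPM in the STZ samples, a log2 fold change of -0.34 (SE 0.105). Dnajb11 (ERdj3) was at 118, 120.1 and 123 CPM against 96.6, 104 and 107 CPM, a log2 fold change of -0.23 (SE 0.0674). Neither gene overlapped between the groups, at edgeR adjusted p = 0.337 for Dnajb9 and 0.311 for Dnajb11. Dnajc3 (p58IPK), a cochaperone also described as an inhibitor of PERK, was the exception of the arm: at 222, 216 and 223 CPM against 192, 211 and 223 CPM its groups overlapped, with a log2 fold change of -0.08 (95% interval -0.26 to 0.10). It carries an ERSE like Hspa5 and Calr.

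The secreted and lumenal stress proteins Manf and Creld2 followed the same order of groups. Manf, a small protein released from astrocytes and neurons under ER stress, was at 121, 129.6 and 127 CPM in the vehicle samples and 76.4, 97.5 and 103 CPM in the STZ samples, a log2 fold change of -0.45 (SE 0.114, edgeR adjusted p = 0.288). Creld2 was at 76.1, 79.5 and 80.0 CPM against 55.3, 66.3 and 63.0 CPM, a log2 fold change of -0.35 (SE 0.0825, edgeR adjusted p = 0.261). In both, all STZ values lay below all vehicle values and STZ replicate 1 was lowest.

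Over the arm of 15 genes, the median log2 fold change was -0.45, with a range of -0.80 to -0.08. At an unadjusted p under 0.05, 14 genes were lower, against 5.65% of all and 10.8% of abundant genes. DESeq2 gave 10 lower at an adjusted p under 0.05, against 0.895% of all genes, but edgeR called 0. Summed over the arm, the level was 5151, 5088 and 5082 TPM in the vehicle samples and 3415, 3903 and 3708 TPM in the STZ samples. As a share of all reads, the arm took 0.546%, 0.563% and 0.568% in the vehicle samples and 0.389%, 0.442% and 0.424% in the STZ samples. The vehicle samples were close together, STZ replicate 1 was the lowest, and the groups were apart on both scales.

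**Figure D2:**
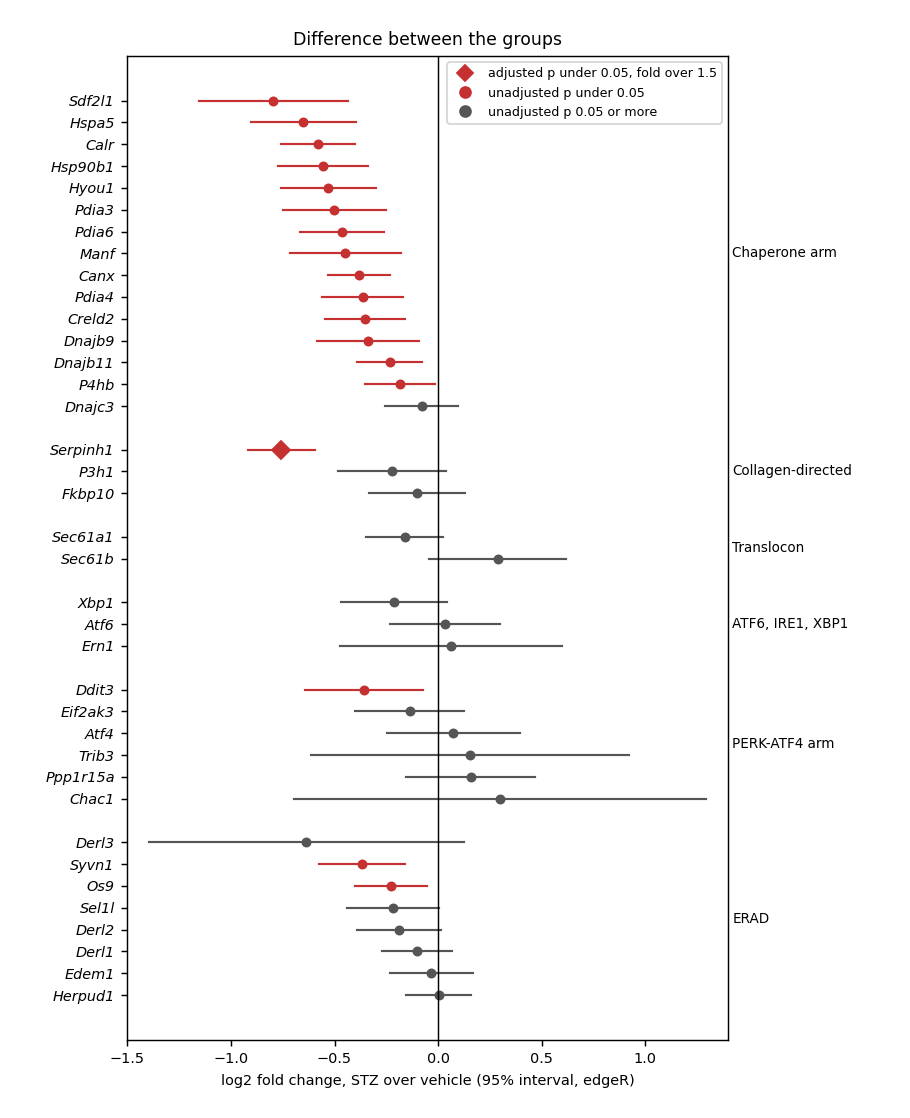
Log2 fold change of each of the 37 genes, STZ over vehicle, on the horizontal axis, with its 95% interval derived from edgeR's test. The diamond marks an adjusted p under 0.05 with a fold over 1.5, red an unadjusted p under 0.05 and grey the rest. The chaperone arm lies between -0.80 and -0.08, Serpinh1 at -0.76 is the only diamond, and the PERK-ATF4 genes lie on both sides of 0.

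The intervals of neighbouring genes in this order overlapped, so the rank of Sdf2l1, Hspa5, Calr, Hsp90b1, Hyou1 and Pdia3, all at -0.50 or below, cannot be read as an order of effect. The chaperone genes with an ERSE had a median log2 fold change of -0.46 over 7 genes, and those with a window but no ERSE one of -0.35 over 6 genes. At an unadjusted p under 0.05 and without overlap, 6 of the 7 and 6 of the 6 were lower. Over all genes, 5.65% were lower at such a p and 9.85% without overlap. The 6 without an ERSE include Sdf2l1, the lowest of the arm, and Dnajb11, which carries an ERSE-II. The difference between the medians was not tested.

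Collagen-directed chaperones were not uniform. Serpinh1 (chr7:99345375-99353239, GRCm38) encodes HSP47, the ER chaperone specific to procollagen. It was at 178, 159 and 168 CPM in the vehicle samples and 99.7, 101 and 98.2 CPM in the STZ samples. The STZ samples were nearly equal and far below the lowest vehicle sample. Serpinh1 fell by 0.76 on the log2 scale (SE 0.0688, edgeR adjusted p = 0.0377, DESeq2 adjusted p = 1.76e-11), the second smallest edgeR p of all genes tested. With any 1 of the 6 samples left out, the log2 fold change stayed between -0.81 and -0.72, while the edgeR adjusted p was between 0.0805 and 0.252 and the call was lost.

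The other collagen-directed genes had values nearer to 0 and were not called. P3h1, a prolyl 3-hydroxylase, was at 16.8, 14.9 and 14.5 CPM against 13.4, 12.5 and 13.8 CPM, without overlap, at a log2 fold change of -0.22 (edgeR adjusted p = 0.501). Fkbp10, a prolyl isomerase that works with HSP47, was at 162, 128 and 135 CPM against 138, 134 and 124 CPM and overlapped, at -0.10 (95% interval -0.34 to 0.13). Of 16 further collagen-modifying enzymes, 4 were lower and 0 higher at an unadjusted p under 0.05, led by Plod1, a lysyl hydroxylase, at a log2 fold change of -0.35, and Fkbp9 at -0.25. The lower share was 5.65% of all and 10.8% of abundant genes. Of 12 collagen chains of the brain vasculature, 0 were lower and 0 higher by the same measure, with a median of 0.14.

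The translocon carries nascent chains into the ER, and its subunits had values of opposite sign. Sec61a1, the channel itself, was at 254, 216 and 232 CPM in the vehicle samples and 204, 209.5 and 215 CPM in the STZ samples, just without overlap, at a log2 fold change of -0.16 (edgeR adjusted p = 0.492). Sec61b, its small β subunit, was at 25.9, 35.1 and 37 CPM against 36.6, 43.7 and 39.4 CPM, where vehicle replicate 1 was lowest and the groups overlapped, at 0.29 (edgeR adjusted p = 0.493). Sec61g, the γ subunit, was at 0.34 without overlap (edgeR adjusted p = 0.407), and Sec61a2, a second channel gene, at -0.26. Short genes had higher log2 fold changes across the whole table: sorted by length, the median was 0.12 in the shortest of 5 equal bins and -0.06 in the longest. The part of gene length in the values of Sec61b and Sec61g was not tested.

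The sensors of the ATF6 and IRE1-XBP1 branches had no unadjusted p under 0.05 at the level of total mRNA, which does not show cleavage of ATF6 or splicing of Xbp1. Xbp1 was at 231, 216 and 205 CPM in the vehicle samples and 158, 202 and 202 CPM in the STZ samples. STZ replicates 2 and 3 lay just under the lowest vehicle sample and replicate 1 far below, and the log2 fold change was -0.21 (95% interval -0.47 to 0.04, edgeR adjusted p = 0.511). Atf6 was at 16.5, 16.9 and 16.3 CPM against 15.9, 19.3 and 15.6 CPM, with overlap, at 0.03 (95% interval -0.23 to 0.30). Ern1 was scarce, at 2.31, 1.83 and 1.95 CPM against 1.73, 2.27 and 2.37 CPM with overlap, at 0.06 (95% interval -0.48 to 0.60).

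Among 12 further sensors and regulators tested, 3 were lower and 0 higher at an unadjusted p under 0.05, against 5.65% of all and 10.8% of abundant genes lower. Wfs1, an ER membrane protein that restrains ATF6, was at 133, 121 and 124 CPM in the vehicle samples and 101, 94.7 and 101 CPM in the STZ samples, a log2 fold change of -0.35 without overlap (edgeR adjusted p = 0.20, DESeq2 adjusted p = 0.0213). Ppp1r15b, a constitutive partner of the eIF2α phosphatase, was at a log2 fold change of -0.22.

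The PERK-ATF4 arm showed no common direction: 4 of its 6 genes had positive and 2 negative log2 fold changes, with a median of 0.11 that became -0.04 without STZ replicate 1, 0.01 without STZ replicate 2 and -0.04 without STZ replicate 3. Atf4, the transcription factor of the branch, was at 91.3, 93.9 and 88.1 CPM in the vehicle samples and 79.0, 90.8 and 118 CPM in the STZ samples. STZ replicate 3 was above and STZ replicate 1 below all vehicle samples, and the log2 fold change was 0.07 (95% interval -0.25 to 0.40). The level of ATF4 protein is set largely by translation, which was not measured. Eif2ak3 (PERK) was at 14.2, 15.1 and 16.1 CPM against 14.9, 12.9 and 13.5 CPM, with overlap, at -0.14.

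Ddit3 (CHOP), the factor linked to cell death under lasting ER stress, was the lowest of the arm. It was at 35.5, 32.6 and 30.2 CPM in the vehicle samples and 22.4, 24.7 and 29.8 CPM in the STZ samples, with STZ replicate 3 just below the lowest vehicle sample, and its log2 fold change was -0.36 (SE 0.122, edgeR adjusted p = 0.367). Ddit3 overlaps Mbd6 and Mars1 in the annotation, and since no source says that reads were counted by strand, the reads of overlapping genes cannot be told apart. Ppp1r15a (GADD34), which ends the PERK signal, was at 43.9, 52.1 and 52.1 CPM against 52.3, 47.2 and 65.8 CPM, with overlap, at 0.16, and it overlaps Tulp2. Trib3 was at 1.21, 1.08 and 1.19 CPM against 1.43, 1.68 and 0.749 CPM and Chac1 at 0.839, 0.501 and 0.681 CPM against 1.27, 0.790 and 0.426 CPM. These CHOP and ATF4 targets were scarce and widely spread, with intervals of -0.62 to 0.92 and -0.70 to 1.29.

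Of 19 other ATF4 and CHOP targets tested, 0 were lower and 1 higher at an unadjusted p under 0.05, with a median log2 fold change of 0.05. The shares over all genes were 5.65% lower and 5.63% higher, so 1 higher gene is near the share. The higher gene, Eif4ebp1, a brake on cap-dependent translation, was at 10.0, 10.5 and 13.2 CPM in the vehicle samples and 15.2, 19.3 and 13.8 CPM in the STZ samples, a log2 fold change of 0.52 without overlap (edgeR adjusted p = 0.356). The difference in direction between the chaperone arm and the ATF4 targets was not tested.

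Among the ERAD genes, 7 of 8 log2 fold changes were negative, with a median of -0.20 (-0.08 with the endothelial level as a covariate), and 2 genes were lower at an unadjusted p under 0.05. The lower share was 5.65% of all and 10.8% of abundant genes. Syvn1 (HRD1), the ubiquitin ligase of the complex, was at 86.4, 84.0 and 72.8 CPM in the vehicle samples and 66.2, 63.7 and 58.7 CPM in the STZ samples, without overlap, at a log2 fold change of -0.37 (SE 0.0884, edgeR adjusted p = 0.279). Os9, the lectin that selects glycoproteins for disposal, was at 266, 269 and 267 CPM against 240.2, 235 and 211 CPM, also without overlap, at -0.23 (SE 0.0741, edgeR adjusted p = 0.349). Syvn1 overlaps Mrpl49 and Mir6988 in the annotation.

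The remaining ERAD genes were closer to 0 or scarce. Sel1l, the scaffold of HRD1, was at 162, 138 and 145 CPM against 115, 129.8 and 139 CPM and overlapped, at -0.22 (95% interval -0.44 to 0.01). Among the derlins, which form the exit channel, Derl2 was at -0.19 without overlap and Derl1 at -0.10 with overlap. Derl3 was at 2.39, 2.54 and 3.88 CPM against 1.91, 2.51 and 1.24 CPM, a log2 fold change of -0.64 with a wide interval of -1.40 to 0.12. Edem1, a mannosidase-like protein, was at -0.03 (95% interval -0.23 to 0.17). Herpud1, a stress-induced scaffold, stood at nearly the same level: 151, 161 and 165 CPM in the vehicle samples and 154, 165 and 159 CPM in the STZ samples, at 0.00 (95% interval -0.16 to 0.16). Of 18 further ERAD genes, 2 were lower and 0 higher at an unadjusted p under 0.05, among them Erlec1, a lectin of the pathway, at a log2 fold change of -0.20. This count at an unadjusted p is near the 10.8% of abundant genes. The groups did not overlap in 6 lower and 2 higher of the 18, against 9.85% and 8.64% of all genes.

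**Figure D3:**
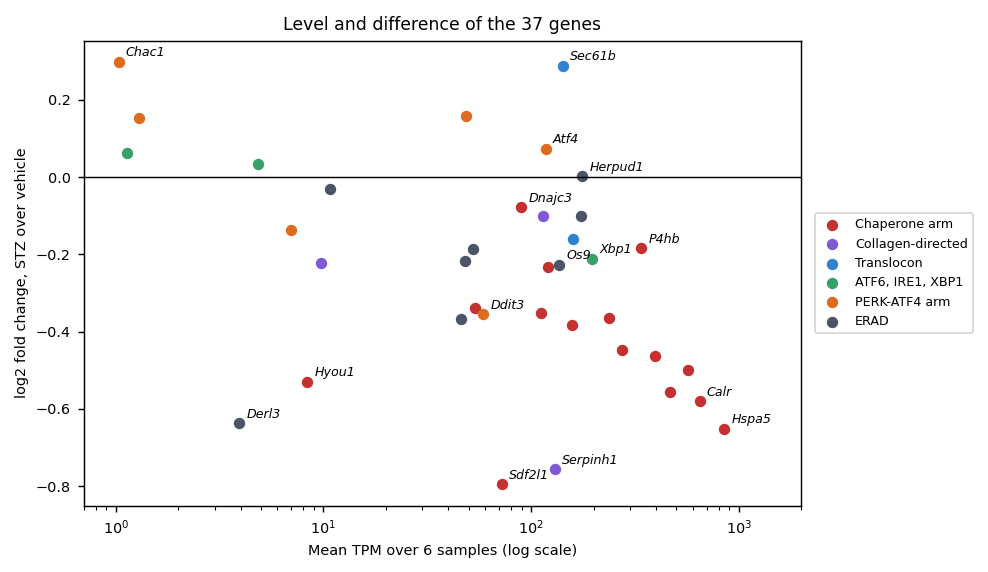
Mean level of each of the 37 genes over 6 samples in TPM (log scale) against its log2 fold change, STZ over vehicle, coloured by branch. All chaperone genes lie below 0, from Hyou1 at 8.36 TPM to Hspa5 at 849 TPM, and scarce genes of the other branches such as Chac1 and Derl3 lie on both sides of 0.

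Genes next to the chaperones in the folding pathway are read against the shares given above, 5.65% of all and 10.8% of abundant genes lower at an unadjusted p under 0.05. Of 10 oligosaccharyltransferase and glycan-trimming genes, 4 were lower and 0 higher at an unadjusted p under 0.05, with a median of -0.17. The groups did not overlap in 7 that were lower and 0 that were higher. Without overlap, 9.85% of all and 15.5% of abundant genes were lower. Prkcsh and Ganab, the subunits of glucosidase II that trims sugars for the calnexin cycle, were at -0.31 (edgeR adjusted p = 0.209) and -0.29 (edgeR adjusted p = 0.218). Prkcsh was at 185, 179 and 188 CPM in the vehicle samples and 146, 149 and 149.7 CPM in the STZ samples. Of 21 other ER folding enzymes, 2 were lower (Cnpy3 at -0.27 and Sil1, an exchange factor of BiP, at -0.19) and 0 higher, with a median of -0.12. Of 15 translocation and signal peptidase genes, 2 were lower and 1 higher, with 9 negative and 6 positive values and a median of -0.06. The counts of these last lists at an unadjusted p are near the share for abundant genes. The groups did not overlap in 4 lower and 1 higher of the 21 folding enzymes. Among the 15 translocation genes, 3 lower and 2 higher did not overlap. EdgeR called 0 genes in each of these lists.

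Cytosolic chaperones were compared as the folding system outside the ER. Of 12 cytosolic heat shock genes, 2 were lower and 0 higher at an unadjusted p under 0.05, against 5.65% of all and 10.8% of abundant genes lower. Of their log2 fold changes, 9 were negative and 3 positive, with a median of -0.17. They summed to 2984, 3517 and 3270 TPM in the vehicle samples and 2438, 2447 and 2720 TPM in the STZ samples, without overlap. As mean log2 deviation per gene, the groups overlapped, with vehicle replicate 1 at -0.09 and STZ replicate 3 at 0.06. Whether the lower levels were confined to ER chaperones was not tested. Hspa8, the constitutive cytosolic HSP70, was at 1709.8, 1979.8 and 1825 CPM in the vehicle samples and 1217, 1279 and 1427 CPM in the STZ samples, a log2 fold change of -0.49 without overlap (edgeR adjusted p = 0.227, DESeq2 adjusted p = 0.00196).

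Endothelial marker values leaned higher in the STZ samples, by counts given here without a call by edgeR. All 12 of 12 endothelial markers had positive log2 fold changes, with a median of 1.07, and they summed to 78.0, 111 and 263 TPM in the vehicle samples and 511, 379 and 272 TPM in the STZ samples. No endothelial marker was at 0 in any sample. At an unadjusted p under 0.05, 10 of the 12 were higher, against 5.63% of all genes. The groups did not overlap in 6 that were higher, against 8.64% of all genes, and edgeR called 0. Mural and fibroblast markers summed to 75.7, 79.9 and 97.2 TPM against 146, 132 and 108 TPM, with 9 positive and 3 negative values. Of these, 4 were higher and 0 lower at an unadjusted p under 0.05, against 5.63% and 5.65% of all genes. DESeq2 gave 1 of 12 endothelial and 4 of 12 mural and fibroblast markers as higher at an adjusted p under 0.05, and 0 as lower. The shares over all genes were 0.819% higher and 0.895% lower. With the fold threshold added, the marker counts stayed at 1 and 4, while that of lower chaperone arm genes went from 10 of 15 to 2. Over all 22337 genes, 146 were higher and 88 lower with that threshold. Vehicle replicate 3 and STZ replicate 3 had nearly the same endothelial sum, 263 and 272 TPM, and chaperone sums of 5082 and 3708 TPM. A pair of single samples cannot tell endothelial content and group apart. The part of that content in the chaperone values was not tested. With the endothelial level as a covariate, the chaperone arm median was -0.41, and 12 of the 37 genes were lower at an unadjusted p under 0.05, 10 of them in the arm. Over all 22337 genes, 917 had such a p in either direction in that fit, against 2519 without the covariate. The share of lower genes alone in that fit was not computed, so the 12 have no matching background. Single genes moved further: Dnajb9 was at -0.11, Ddit3 at -0.09, Syvn1 at -0.24, Xbp1 at -0.01, Sec61b at 0.04 and Derl3 at -1.30.

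The choroid plexus and ependymal list summed to 10568, 28476 and 29808 TPM in the vehicle samples and 19898, 16081 and 26830 TPM in the STZ samples, with overlap. Vehicle replicate 1, the lowest by far, had the highest chaperone sum of the vehicle samples, 5151 TPM, but the lowest share of reads among them, 0.546%, and both were above all STZ samples. With this level as a covariate, the chaperone arm median was -0.45, and 21 of the 37 genes were lower at an unadjusted p under 0.05. Over all 22337 genes, 3615 had such a p in either direction in that fit, against 2519 without the covariate. Here too the share of lower genes alone was not computed, so the 21 have no matching background. Oligodendrocyte lineage markers summed to 988 to 2258 TPM in the vehicle and 1171 to 2699 TPM in the STZ samples, microglia and macrophage markers to 378 to 574 and 360.2 to 547 TPM, and neuron markers to 78.2 to 87.4 and 68.7 to 82.1 TPM, all with overlap. Among 10 astrocyte markers, the median log2 fold change was -0.11; 6 values were negative and 4 positive, from -0.48 for Aqp4, the water channel of astrocyte endfeet, to 0.27 for Gjb6, a connexin. At an unadjusted p under 0.05, 2 of the 10 were lower and 1 higher, against 5.65% and 5.63% of all genes. Aldh1l1, whose promoter drives the Cre, was at -0.22. The part of these astrocyte differences in the chaperone values was not tested.

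**Figure D4:**
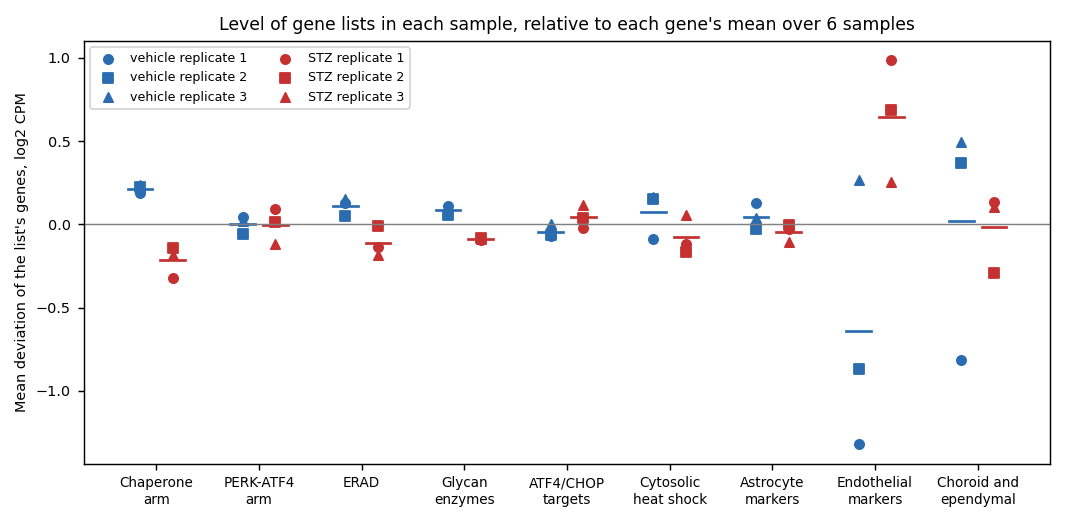
Mean deviation of each gene list in each sample, as log2 CPM relative to each gene's mean over the 6 samples; blue is vehicle, red is STZ, symbol shapes give replicates and bars the group means. The chaperone arm separates the groups (0.19 to 0.23 against -0.32 to -0.14). So do ERAD (0.05 to 0.15 against -0.18 to -0.01) and the glycan enzymes (0.06 to 0.11 against -0.10 to -0.08). The PERK-ATF4 arm does not, and endothelial markers are close in vehicle replicate 3 and STZ replicate 3.

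The ERSE was also followed beyond the 37 genes, a step chosen after the values were seen. Of the genes with an exact ERSE in their window, 26 were tested, 9 of the set and 17 others. Among the 17 others, 14 had negative and 3 positive log2 fold changes, 3 were lower and 0 higher at an unadjusted p under 0.05, and the median was -0.29. Among the 9 of the set, all were negative, 7 at an unadjusted p under 0.05, with a median of -0.46. The windows of 2 of the 17, Alg12 and 1700122E12Rik, overlap those of Creld2 and Calr, and both are among the 3 lower ones. Without them 1 of 15 was lower at an unadjusted p under 0.05, near the 5.65% of all genes, with a median of -0.29. Xlr3a, Xlr3b and Xlr3c are close copies whose reads may be shared, and the windows of Gm39859 and Hnrnpa3 overlap each other. Negative values were found in 10737 of all 22337 genes tested. Several of the 17 were near or under 1 CPM.

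Some of these other genes also act in the ER. Alg12, a mannosyltransferase that builds the glycan precursor, was at a mean of 17.6 CPM in the vehicle and 13.8 CPM in the STZ samples, a log2 fold change of -0.35 without overlap (edgeR adjusted p = 0.339). Ero1lb, an oxidase that recharges disulfide isomerases, was at 16.3 against 13.7 CPM, at -0.26 with overlap (edgeR adjusted p = 0.476). Calr4, a relative of calreticulin, was at 4.30 against 3.51 CPM, at -0.29 without overlap (edgeR adjusted p = 0.584).

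**Figure D5:**
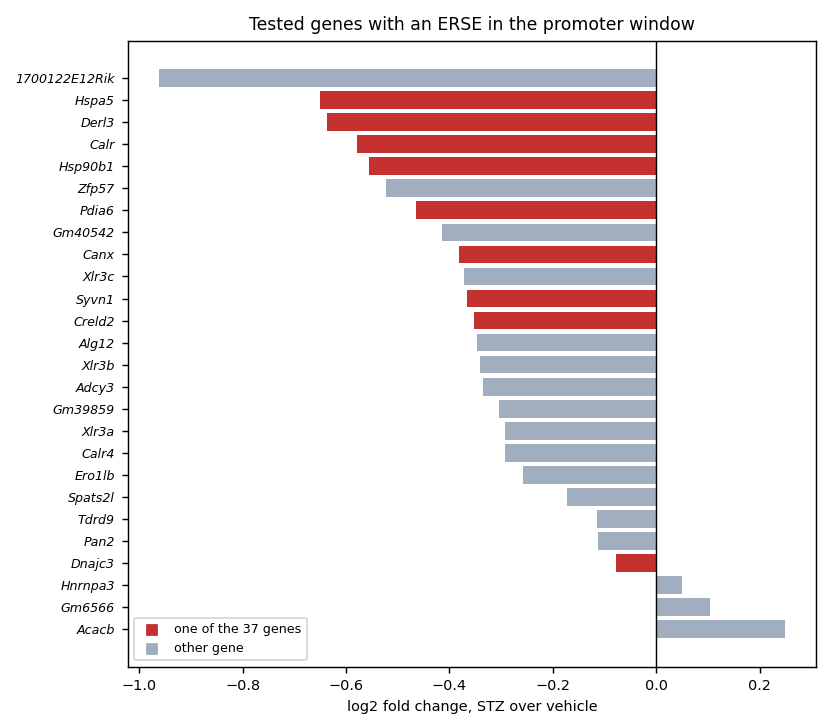
Log2 fold change, STZ over vehicle, of the 26 tested genes with an exact ERSE in the promoter window; red bars are genes of the set and grey bars other genes, some of them with very few reads. Negative values are seen in 23 of 26 genes, with Dnajc3 the red bar nearest to 0.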

How the data were processed

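Bulk RNA-seq of sorted tdTomato+ astrocytes was analysed for 3 vehicle and 3 STZ samples, grouped by the treatment label. Per the submitters' processing notes, the tools were bcl2fastq 2.20.0, Trimmomatic 0.38, HISAT2 2.1.0, SAMtools 1.9 and StringTie 2.1.3b, with the genome mm10. The deposited read counts are whole numbers per gene without normalization. The deposited FPKM values are scaled by the authors to transcript length and mapped reads and were not used. The deposited TPM values were made by the authors. The 37 genes and all gene lists were chosen with earlier results of these data known.

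The main test was the quasi-likelihood test of edgeR 4.0.16 (R 4.3.3; TMM, two-sided, a group term alone) over genes with a count above 0 in all samples, as the study filtered. The outlier gene removal of the study is not described and was not repeated. SE and 95% intervals are not given by edgeR itself and were derived from its log2 fold changes, F statistics and degrees of freedom. Named genes are the 37 and, from each other list, at most 2 per direction with the smallest p among genes without overlap; markers and other genes with an ERSE were named after their values were seen. A gene that this rule would name is not reported here. Alternatives were DESeq2 1.42.0 (the study's tool), its size factors, no TMM, other filters, robust dispersion, the replicate number as a block, limma 3.58.1 on log2(TPM + 1) and log2(TPM + 0.1), and leaving out each sample. Leaving out the 50 most abundant genes and the endothelial and choroid plexus covariates were chosen after seeing the data. The test scripts were tested on simulated data. Positions and promoters are from RefSeq GRCm38.p6, matched by gene number; mm10 is the same assembly. Promoters were searched with Python 3.11.15. Floors of 3 counts cover counting error only.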

Additional observations from a re-analysis of the deposited data

How the results depend on the processing

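The number of the 37 genes past the threshold, 1 with edgeR, was 3 with DESeq2, 0 with the replicate block, 0 with limma at either pseudocount, 0 with the endothelial covariate and 0 to 0 with each sample left out. The number lower at an unadjusted p under 0.05, 18, was 12 with the endothelial covariate, 21 with the choroid plexus covariate and 16 to 21 with a sample left out. The number higher, 0, was 1 without TMM, 1 with the replicate block, 1 with limma at either pseudocount, 1 with the choroid plexus covariate and 0 to 1 with a sample left out. The PERK-ATF4 median of 0.11 was -0.081 and the ERAD median of -0.20 was -0.085 with the endothelial covariate; with a sample left out the PERK-ATF4 median was -0.045 to 0.097. Serpinh1 kept its size but not its call: -0.75 with the replicate block (adjusted p = 0.517), -0.73 and -0.74 with limma (adjusted p = 0.0852 and 0.0885), and -0.73 with the endothelial covariate (adjusted p = 0.9997, with no gene called in that fit).

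Values near 0 changed sign. Herpud1 was at -0.0021 with DESeq2, -0.0021 with its size factors, -0.0042 without a filter, -0.00036 with filterByExpr, -0.062 with the endothelial covariate and -0.035 to 0.025 with a sample left out. Edem1 was at 0.023 without TMM, 0.0068 and 0.0076 with limma, 0.018 with the endothelial covariate and -0.10 to 0.017 with a sample left out. Trib3 was at -0.13 with the endothelial covariate and -0.085 to 0.43 with a sample left out, and Chac1 at -0.070 and -0.15 to 0.61. With a sample left out, Fkbp10 was at -0.18 to 0.00024, Atf6 at -0.067 to 0.089, Ern1 at -0.024 to 0.19 and Atf4 at -0.10 to 0.20. The causes were not tested. The replicate numbers were not treated as pairs in the main test. Between same-numbered samples, deviations from the group means of log2 CPM correlated at -0.10, -0.16 and -0.18. Such deviations cancel out within each group, so these values cannot decide whether the numbers pair the samples. The replicate block left 17 genes lower at an unadjusted p under 0.05.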
